A study of Mus musculus with 2 samples.

Results

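Transcripts of 35 cilium genes, of 23284 gene symbols counted, were described in sorted cells of the embryonic mouse pancreas. The genes were chosen by symbol, not by level: the numbered Ift, Bbs and Nphp genes, Tctn1 to Tctn3, Dnaic1, Dnaic2 and Dnali1, together with Wdr19, Wdr35, Arl13b, Ofd1, Foxj1 and Rpgrip1l. The choice also took axonemal dynein heavy chains spelled Dnah, but the files spell those genes Dnahc, so their 11 rows fell outside it and are given separately. Both RNA-seq libraries came from the only group, numbered 1 and 2 in the labels. They were made from GFP+ cells sorted out of dissociated whole pancreas of NGN3-EGFP embryos at e15.5, on a background labelled "mixed, C57BL6". The labels do not say whether the reporter replaces a Neurog3 allele, how many embryos were pooled, or whether each sample came from its own litter, so the spread between them may be technical. No control or comparison group was included, and contrasts were made between genes within each library.

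A cilium is a microtubule-based projection that grows from a basal body. The primary cilium is single and non-motile, receives signals, and is carried by duct and endocrine cells of the pancreas. Intraflagellar transport moves cargo along it. Complexes B (IFT-B) and A (IFT-A) travel together, outward by kinesin-2 and back by cytoplasmic dynein 2, and the BBSome carries membrane proteins. The transition zone at the base gates entry. Motile cilia add axonemal dynein arms, radial spokes and a central pair, and their gene programme is driven by Foxj1. RFX transcription factors act on promoters of both kinds of cilium gene through an inverted repeat called the X-box.

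Counted reads numbered 12495143 in replicate 1 and 12043734 in replicate 2. Levels are CPM, the reads of a gene scaled to a common library size with trimmed mean of M values (TMM) factors. Detection meant at least 1 CPM in each of the libraries. A gene with no read may have had up to 3, which is 0.241 CPM in replicate 1 against 0.248 CPM in replicate 2, counting error only. All 8 endocrine markers were detected, with summed levels of 10083 and 10033 CPM. Markers of other cell types were also present. Those of embryonic duct summed to 1528 and 1335 CPM, with 8 of 10 detected. Anxa4 alone held 824 and 707 CPM of the duct sums, while Cftr had 0 and 8 reads and Onecut1 had 3 and 3. Acinar markers summed to 1631 and 1226 CPM, with 6 of 8 detected. Ctrb1 alone held 1321 and 986 CPM of the acinar sums, while Ptf1a had 0 and 3 reads and Pnlip had no read. Mesenchymal markers summed to 422 CPM in replicate 1 against 138 CPM in replicate 2, with 5 of 8 detected and each of the 8 higher in replicate 1. Immune markers (2 of 6 detected, Fcer1g without a read) summed to 56.5 and 11.7 CPM, and endothelial markers (1 of 6 detected) to 29.3 and 9.42 CPM. The immune sums lay mostly in Laptm5, at 37.9 and 3.55 CPM, and Cd68, at 18.4 and 7.69 CPM. Since each library pools sorted cells, a low level of a transcript in all cells cannot be told apart from a higher level in few of them.

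Among the 35 genes, those of the primary cilium were detected almost throughout, and of the 4 genes of motile cilia only 1 was. Further motile genes, given below, were mixed, from 25% of dynein assembly factors detected to 87.5% of other genes listed with axonemal dynein. Of that latter list only 37.5% averaged 10 CPM or more. Of the 35 genes, 31 were detected (88.6%), against 45.7% of all symbols. A mean of at least 10 CPM was reached by 28 of the 35 (80%), against 39% of all symbols. The detected genes comprised all 10 IFT-B genes, all 4 IFT-A genes, 7 of 8 Bbs genes, all 7 transition zone genes, Arl13b, Ofd1 and 1 of 4 genes of motile cilia, Dnaic1. Those not detected were Bbs12, Dnaic2, Dnali1 and Foxj1. The levels were moderate: the median over the 35 was 18.5 CPM in replicate 1 against 30.5 CPM in replicate 2, and Ift20 alone had a mean above 100 CPM. Per kb of exon, the median of the 31 detected genes was 7.02 CPM per kb in replicate 1 and 11.6 CPM per kb in replicate 2, beside 11.0 and 10.8 CPM per kb for the 10554 detected genes of known length.

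**Figure D1:**
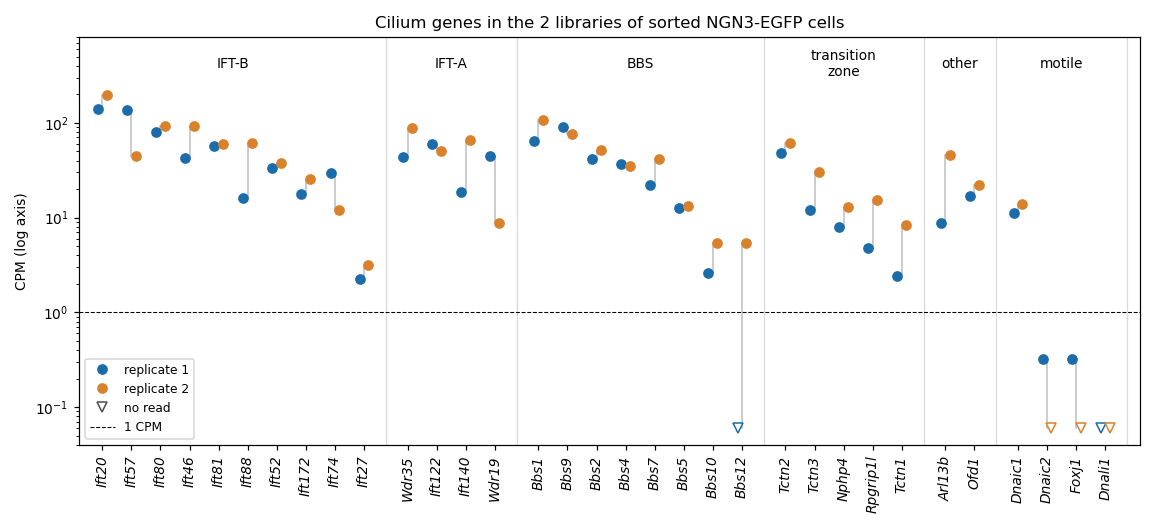
Level of the cilium genes in CPM on a log axis, with 1 point per library, grouped by role and ordered by mean level; open triangles mark genes with no read in that library, placed below the scale, and the dashed line marks 1 CPM. The transport and transition zone genes plotted lie above 1 CPM in both libraries except Bbs12, while Dnaic2, Foxj1 and Dnali1 lie below it.

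Of 8 RFX factors, 6 were detected in the same cells. Rfx3, known for its part in ciliogenesis, was at 574 CPM in replicate 1 against 410 CPM in replicate 2. Rfx6, known as a factor of endocrine differentiation, was at 241 and 365 CPM. Rfx7 was at 35.3 and 82.8 CPM, Rfx2 at 45.4 and 46.3 CPM, Rfx1 at 41.6 and 27.7 CPM and Rfx5 at 33.2 and 13.5 CPM. Rfx3 and Rfx6 were thus above each of the 35 cilium genes in both libraries by CPM, a scale that does not correct for gene length. Per kb of exon Rfx3 was at 61.6 and 44.0 CPM per kb and Rfx6 at 64.8 and 98.1. Both lay below Ift20, at 123 and 173 CPM per kb. Rfx4 and Rfx8 had 1 read each over both libraries.

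The promoters of the cilium genes were searched for the X-box, because RFX factors were abundant and the motif is known from this gene class. RefSeq promoter sequences on GRCm38.p6, each of 300 bases from 250 before to 50 after the annotated start, were available for 29 of the 35 genes and gave 31 promoters. A full X-box was taken as GTTGCC or GTTACC, then 0 to 3 bases, then GGCAAC or GGTAAC, read on both strands. It was found in 3 of 31 promoters (9.68%), beside 0.408% of all 32851 promoters in the same table. These were the promoters of Ift57 (chr16:49699044-49699343, plus strand), Tctn3 (chr19:40612182-40612481, minus strand) and Tctn1 (chr5:122264411-122264710, minus strand). The match began 60 bases before the start of Ift57, 140 before that of Tctn3 and 37 after that of Tctn1. The stretches around them are printed in the direction of transcription, with the X-box letters in capitals, so that the 3 matches can be compared.
Ift57: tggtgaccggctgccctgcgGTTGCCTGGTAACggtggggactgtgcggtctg
Tctn3: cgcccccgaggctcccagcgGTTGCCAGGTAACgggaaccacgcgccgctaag
Tctn1: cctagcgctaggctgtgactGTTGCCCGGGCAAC

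With a looser pattern, GTNNCC and GGNNAC around the same gap of 0 to 3 bases, 9 of 31 promoters held a match (29.0%), beside 3.86% of all promoters. The added genes were Bbs1, Bbs4, Bbs7, Nphp4, Tctn2 and Wdr19, and Ift57 had a further match 87 bases before its start that does not overlap the strict one. Matches of Wdr19 (chr5:65199446-65199745, plus strand), Bbs7 (chr3:36613340-36613639, minus strand), Bbs1 (chr19:4906578-4906877, minus strand) and Tctn2 (chr5:124598499-124598798, plus strand) are shown to give the range of letters that the looser pattern takes.
Wdr19: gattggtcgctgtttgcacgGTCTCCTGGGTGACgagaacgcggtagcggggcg
Bbs7: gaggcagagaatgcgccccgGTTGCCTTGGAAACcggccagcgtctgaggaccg
Bbs1: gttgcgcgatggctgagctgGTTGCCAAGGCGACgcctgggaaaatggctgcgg
Tctn2: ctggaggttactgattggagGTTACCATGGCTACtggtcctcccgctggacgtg

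A single arm of the motif, GTTGCC or GTTACC on either strand, was in 19 of 31 cilium promoters (61.3%), beside 18.6% of all promoters. Among the 17 promoters of Ift and Bbs genes, 1 had the strict and 4 the looser full motif. None of the 11 promoters of the Dnahc genes had either, and 4 of those 11 (36.4%) had a single arm. Genes with a match did not all move the same way between the libraries: of those with the strict motif, Ift57 was lower in replicate 2 and Tctn3 and Tctn1 were higher. A match of letters describes the sequence and is not a measured binding site.

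**Figure D2:**
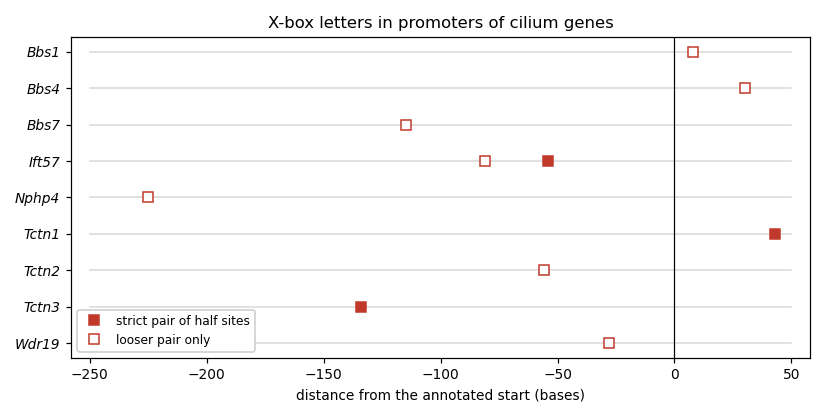
Position of the middle of each X-box match relative to the annotated transcription start, in bases, for the 9 cilium genes with a match in the 300-base promoter; filled squares are strict matches and open squares matches of the looser pattern only. Strict matches lie in the promoters of Ift57, Tctn3 and Tctn1, and the positions run from far upstream in Nphp4 to just after the start in Tctn1, Bbs4 and Bbs1.

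The IFT-B genes included the highest of the 35 but did not lead by median CPM. Their medians were 37.9 and 52.0 CPM in replicates 1 and 2, beside 43.9 and 58.3 CPM for IFT-A. Per kb of exon the order was reversed, with 13.0 and 18.3 CPM per kb for IFT-B and 8.36 and 10.1 for IFT-A. Ift20, whose product moves between the Golgi and the cilium, was at 141 CPM in replicate 1 against 197 CPM in replicate 2 (169 ± 39.8, SD, n = 2), the highest of the 35 in each library both by CPM and per kb of exon. Per length its levels were 123 and 173 CPM per kb, above those of every other cilium gene. Ift57, a peripheral subunit, was at 135 CPM in replicate 1 against 44.3 CPM in replicate 2 (89.6 ± 64.1), so its high mean rested on 1 library. Per kb it was second of the 35 in replicate 1 and 12th in replicate 2.

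Ift80, a peripheral subunit, stayed at similar levels of 79.0 and 91.5 CPM (85.3 ± 8.83). Ift81 and Ift74 form a dimer that binds tubulin, and they differed in how closely the libraries agreed: Ift81 was at 56.5 and 59.8 CPM, and Ift74 at 29.4 and 11.9 CPM. Ift81 was above Ift74 in both libraries. The core subunit Ift46 was at 42.6 CPM in replicate 1 against 93.3 CPM in replicate 2.

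Ift88, the core subunit altered in the Oak Ridge polycystic kidney mouse, was at 16.1 CPM (200 reads) in replicate 1 against 61.3 CPM (742 reads) in replicate 2, which is 3.82-fold higher in replicate 2. Its partner in the core, Ift52, was at 33.3 and 37.7 CPM, so Ift88 lay below Ift52 in one library and above it in the other. Per kb of exon the pair kept that reversal, with Ift88 at 5.21 and 19.9 CPM per kb and Ift52 at 14.8 and 16.8 CPM per kb. Ift172, the large peripheral subunit, was at 17.9 and 25.4 CPM. The lowest IFT-B gene was Ift27, a small GTPase with a known role in removing the BBSome from cilia, at 2.25 CPM (28 reads) and 3.14 CPM (38 reads).

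The 4 IFT-A genes had means from 26.4 to 65.4 CPM, and their order differed between the libraries. Wdr35 was at 43.6 CPM in replicate 1 against 87.2 CPM in replicate 2 (65.4 ± 30.8, SD, n = 2). Ift122, a core subunit, was at 59.6 and 50.1 CPM (54.9 ± 6.75), the closest agreement of the 4. Ift140 was at 18.5 CPM in replicate 1 against 66.5 CPM in replicate 2 (42.5 ± 34.0). Wdr19, which with Ift122 and Ift140 belongs to the core of the complex, went the other way, with 44.1 CPM in replicate 1 against 8.76 CPM in replicate 2 (mean 26.4). The order of Wdr19 and Ift140 was thus opposite in the libraries, and it was opposite per kb of exon as well, with 7.02 and 1.39 CPM per kb for Wdr19 and 2.40 and 8.64 CPM per kb for Ift140.

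IFT genes that carry other symbols were detected for 7 of 9. By an exact binomial test between the libraries with Benjamini-Hochberg adjustment, 6 of the 8 tested were higher in replicate 2 (44.1% of all genes tested were) and 2 in replicate 1 (41.7% of all). Ttc21b, an IFT-A subunit, was at 58.9 and 41.9 CPM, and the IFT-B subunits Traf3ip1 and Cluap1 were at 24.0 and 73.5 CPM and at 19.6 and 71.5 CPM. The motors of the transport were detected for 7 of 9 genes. Kif3b and Kif3a, motor subunits of kinesin-2, were at 147 and 73.7 CPM and at 67.8 and 104 CPM, and Dync2h1, the heavy chain of cytoplasmic dynein 2, was at 74.5 and 103 CPM. In replicate 1 Kif3b lay above Ift20, the highest Ift gene, at 141 CPM.

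Among the 8 Bbs genes, 6 encode subunits of the BBSome, and all 6 were detected with means over 10 CPM. Bbs1 was at 63.7 CPM in replicate 1 against 108 CPM in replicate 2 (85.8 ± 31.2, SD, n = 2), and Bbs9 was at 90.7 and 76.2 CPM (83.4 ± 10.2). The remaining subunits ranged lower. Bbs2 was at 41.2 and 51.9 CPM, Bbs4 at 36.4 and 34.9 CPM, Bbs7 at 21.9 and 41.8 CPM and Bbs5 at 12.7 and 13.1 CPM. Per kb of exon the 6 were closer to each other, from 7.02 for Bbs7 to 25.3 CPM per kb for Bbs9 in replicate 1 and from 8.95 for Bbs5 to 21.2 CPM per kb for Bbs9 in replicate 2.

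The 2 chaperonin-like genes needed to assemble the BBSome were the lowest of the Bbs genes. Bbs10 was at 2.57 CPM (32 reads) in replicate 1 against 5.37 CPM (65 reads) in replicate 2. Bbs12 had no read in replicate 1 and 65 reads, or 5.37 CPM, in replicate 2, at least 22.3-fold higher against a floor of 3 reads. It was the only Bbs gene below 1 CPM in a library. The partner genes outside the numbered set were all detected, 5 of 5, with Ttc8, a further BBSome subunit, at 73.7 and 91.5 CPM, Arl6, the GTPase that recruits the BBSome to membranes, at 55.8 and 45.2 CPM, and Lztfl1, a regulator of BBSome traffic, at 103 and 29.7 CPM.

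Transition zone genes lay lower than transport genes. Their median was 11.7 CPM in replicate 1 against 15.3 CPM in replicate 2, beside 34.8 and 47.2 CPM for the 20 Ift and Bbs genes. Per kb of exon the medians were 3.83 and 2.60 CPM per kb for the transition zone and 11.1 and 15.2 CPM per kb for transport. The 3 tectonic genes, which belong to the MKS module of the gate, differed from each other: Tctn2 was at 48.2 and 61.2 CPM, Tctn3 at 11.9 and 30.5 CPM and Tctn1 at 2.41 and 8.43 CPM. Tctn2 was above Tctn3, and Tctn3 above Tctn1, in both libraries and on both scales. Tctn1 shares 1574 of its 5717 exon bases with Hvcn1 on the opposite strand, and since the strand setting of the counting is not known, its reads are uncertain.

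In the NPHP module, Nphp4 was at 7.88 and 13.1 CPM and Rpgrip1l at 4.74 and 15.3 CPM, both higher in replicate 2. Of 16 other genes of the MKS, NPHP and inversin modules, 14 were detected. They were led by Cc2d2a at 96.6 and 113 CPM, Ahi1 at 84.9 and 39.4 CPM and Invs, which encodes inversin, at 60.0 and 36.9 CPM. Among those 16, 6 were called higher in replicate 2 and 6 in replicate 1, beside 44.1% and 41.7% of all genes tested.

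Arl13b, a GTPase of the ciliary membrane that is mutated in Joubert syndrome, was at 8.84 CPM (110 reads) in replicate 1 against 45.2 CPM (547 reads) in replicate 2, 5.11-fold higher in replicate 2. Per kb of exon this was 2.51 and 12.8 CPM per kb. Ofd1, a centriolar protein at the base of the cilium, was at 16.8 and 21.9 CPM (19.4 ± 3.61, SD, n = 2), so it differed little while Arl13b differed most of all cilium genes averaging 10 CPM or more.

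Motile cilium genes were compared with the transport genes, as the 2 sets belong to programmes that are shared by all cilia and restricted to motile ones. Dnaic1, an intermediate chain of the outer dynein arm, was at 11.1 CPM (138 reads) in replicate 1 against 14.1 CPM (170 reads) in replicate 2. Dnaic2, the other intermediate chain of that arm, had 4 reads in replicate 1 and none in replicate 2. The partners of the outer arm were thus far apart, with Dnaic1 clearly above the detection limit and Dnaic2 at 0.32 CPM or less. Foxj1 also had 4 reads in replicate 1 and none in replicate 2. Dnali1, a light intermediate chain of inner dynein arms, had no read in either library.

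The median of the 20 transport genes was 34.8 CPM in replicate 1 against 47.2 CPM in replicate 2, while that of the 2 Dnaic genes was 5.71 and 7.03 CPM. The transport median was higher in 2 of 2 libraries, by 6.11-fold and 6.72-fold. As medians of log2 CPM with a prior count of 2, the difference was 3.90 and 4.96 (4.43 ± 0.74, SD, n = 2). Per kb of exon it was 3.75 and 4.83. These log2 differences stand for larger folds than those above, because the median of 2 genes is their mean. On the log scale that mean is drawn down by Dnaic2, near the floor. An exact sign-flip permutation test of 2 libraries cannot give a two-sided p below 0.5, so the order is a description. The size rested on the reads of Dnaic2: among genes with at least 10 reads, with Dnaic1 left alone in the motile set, the difference was 1.68. By single genes, 17 of 20 transport genes were above Dnaic1 in replicate 1 and 15 in replicate 2, and per kb of exon it was 15 in each, 14 of them in both.

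The heavy chains, listed as Dnahc, held an exception to the low motile levels. Dnahc9, a heavy chain of the outer arm, was at 155 CPM (1928 reads) in replicate 1 against 277 CPM (3352 reads) in replicate 2 (216 ± 86.3, SD, n = 2), above all 20 transport genes by CPM in both libraries. Its transcript is long, and per kb of exon it was at 10.7 and 19.1 CPM per kb, where 11 transport genes lay above it in replicate 1 and 6 in replicate 2, 4 of them in both. Of all reads on the 11 Dnahc rows, Dnahc9 held 86.2% in replicate 1 and 78.0% in replicate 2. Of its 14533 exon bases, 477 overlap Gm12296 on the opposite strand.

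The other heavy chains were low. Dnahc2, an inner arm chain, was at 14.7 and 32.1 CPM, Dnahc11, an outer arm chain, had 62 and 242 reads, and Dnahc1, an inner arm chain, was at 2.25 and 14.5 CPM. Those genes and Dnahc9 were the 4 of 11 that were detected. Dnahc17 had no read in replicate 1 and 127 reads in replicate 2, and Dnahc5, another outer arm chain, was at 1.21 and 0.41 CPM. Dnahc7b was at 1.13 CPM and then without a read, with only 55.6% of its 25-base words found in no other gene, Dnahc6 had 7 reads and Dnahc10 had 6 reads in 1 library each, and Dnahc7a and Dnahc8 had none. With the 11 heavy chains in the motile set its median fell to 1.13 CPM in replicate 1 against 0.50 CPM in replicate 2, and the difference from transport rose to 4.76 and 6.16 on the log2 scale, or 6.73 and 8.21 per kb of exon. In replicate 2 the motile medians fell on genes with 6 reads or fewer, so the size there depends on the prior count of 2.

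**Figure D3:**
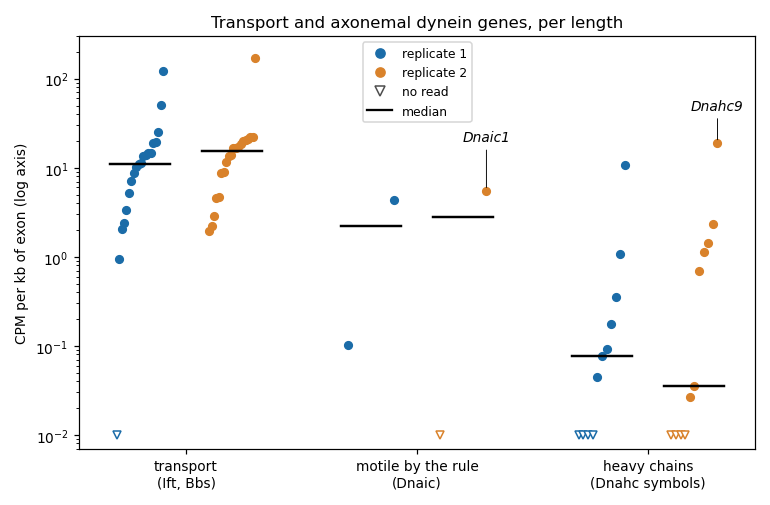
Level per kb of exon on a log axis for the 20 Ift and Bbs genes, the 2 Dnaic genes and the 11 Dnahc heavy chains, with 1 point per gene in each library, bars at the medians and open triangles for genes with no read, placed below the scale. The transport points spread around medians of 11.1 and 15.2 CPM per kb, and Dnahc9 and Dnaic1 are the highest points of the dynein sets in both libraries.

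The wider motile programme was patchy. Of 8 other genes listed with axonemal dynein 7 were detected, led by Dnalc1, a light chain of the outer arm, at 86.2 and 109 CPM. Not all 8 encode axonemal chains: Ccdc114, Armc4 and Ttc25 are docking genes of the outer arm, and Dynlrb2 is a roadblock-type light chain. Levels were mostly low, with medians of 6.03 and 4.26 CPM in replicates 1 and 2. A mean of at least 10 CPM was reached by 3 of the 8 (37.5%), beside 39% of all symbols. Dnalc4, also a light chain, was at 61.3 CPM in replicate 1 against 2.15 CPM in replicate 2, and Wdr63, an inner arm intermediate chain, at 42.2 and 8.76 CPM. Assembly factors of dynein arms were detected for 2 of 8 genes, Heatr2 at 95.7 and 56.5 CPM and Spag1 at 28.6 and 47.0 CPM. Genes of radial spokes, the central pair and other axoneme structures were detected for 7 of 19, below the 45.7% of all symbols. The highest were Tekt2, a tektin of the microtubule doublets, at 80.1 and 38.9 CPM, Gas8, of the nexin-dynein regulatory complex, at 71.9 and 22.4 CPM, and Rsph9, of the radial spoke head, at 48.8 and 12.8 CPM. Hydin and Spag6 of the central pair had no read in either library, nor did Ccdc65 and Tekt4. Of the 11 axoneme genes tested, 7 were called higher in replicate 1 and 4 in replicate 2, beside 41.7% and 44.1% of all genes tested.

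Regulators of multiciliated cells were low or without reads. Trp73 was at 7.56 and 22.7 CPM, Myb at 2.17 and 10.6 CPM and Ccdc67, the older symbol of Deup1, at 5.14 and 5.79 CPM. Mcidas and Gmnc, listed as Gm6320 and Gm606, had no read in either library. A list of 7 markers of multiciliated cells, which includes Foxj1 itself, had 1 detected gene, Ccdc67, and summed to 8.92 and 6.61 CPM.

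**Figure D4:**
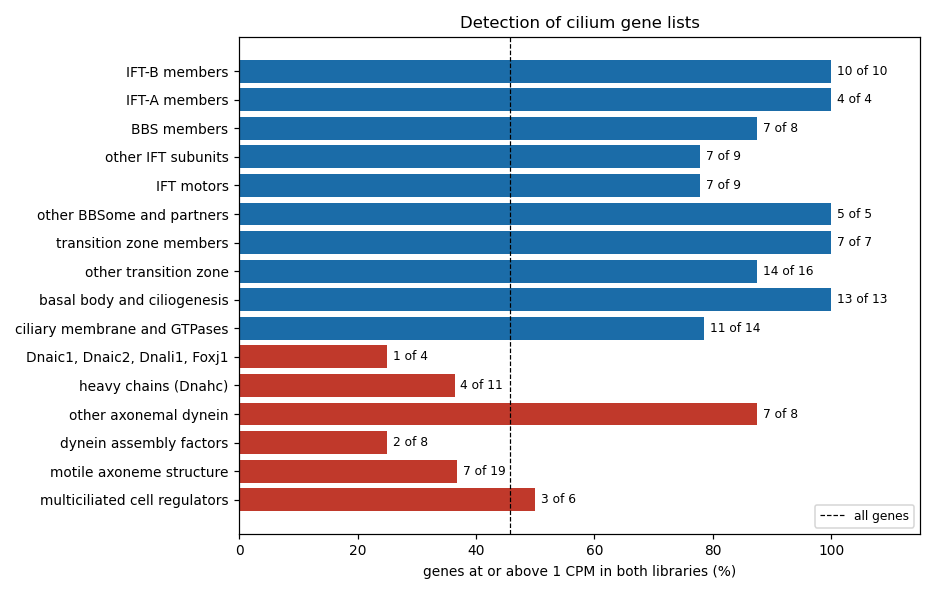
Share of each gene list detected at 1 CPM or more in both libraries, in percent, with the number detected of the number measured at the end of each bar; blue bars are lists of transport, gate, basal body and ciliary membrane genes, red bars lists of motile cilium genes, and the dashed line is the 45.7% of all symbols. The blue bars all lie above the line, and of the red bars those labelled other axonemal dynein, which includes docking genes, and multiciliated cell regulators do.

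The libraries were compared gene by gene with a two-sided exact binomial test on reads with Benjamini-Hochberg adjustment over the 13416 genes with at least 10 reads, which contrasts these 2 libraries and no conditions. Of the 32 cilium genes tested, 27 differed, beside 85.8% of all genes tested. Of these, 21 were higher in replicate 2 (44.1% of all genes tested were) and 6 in replicate 1 (41.7% of all). A difference over 2-fold as well was found for 13 of the 32, beside 47.8% of all genes. The median log2 ratio of replicate 2 over replicate 1 was 0.47 over the 32 genes, the same with Bbs12 at its floor, 0.39 over the transport genes and 0.04 over all genes tested.

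Among cilium genes averaging 10 CPM or more, the largest differences were those of Arl13b, Wdr19 and Ift88. The log2 ratio was 2.33 for Arl13b (adjusted p = 2.0e-72, exact binomial test), -2.31 for Wdr19 (adjusted p = 1.7e-69, exact binomial test) and 1.92 for Ift88 (adjusted p = 2.7e-76, exact binomial test). Ift57 and Ift74, with ratios of -1.60 and -1.29, shared the direction of Wdr19, while Ift140 and Tctn3, with 1.84 and 1.35, shared that of Arl13b. Ift57, Ift74, Ift122, Wdr19 and Bbs9 were among the genes higher in replicate 1, so subunits of 1 complex went in opposite directions in IFT-B, in IFT-A and in the BBSome.

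The other 5 of the 32 genes did not pass the test. The closest between libraries were Bbs5 with a log2 ratio of 0.05, Bbs4 with -0.06 and Ift81 with 0.08 (adjusted p = 0.796, 0.569 and 0.326, exact binomial tests). Ift52 and Ift27 had ratios of 0.18 and 0.45 (adjusted p = 0.077 and 0.239, exact binomial tests), the latter with 66 reads in all and therefore little precision. Dnaic1 was only just called, with a ratio of 0.34 (adjusted p = 0.047, exact binomial test).

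The spread of the cilium genes was near that of genes of like abundance. In the band of means from 10 to 100 CPM, which held 27 of them, the median SD of log2 CPM was 0.51, beside 0.59 for all 6762 genes of the band, and 10 of the 27 (37.0%) differed over 2-fold, beside 42.9%. The mesenchymal markers, with 422 and 138 CPM, were higher in replicate 1, the opposite of the direction in which most cilium genes differed. Duct markers, from cells known to be ciliated, were also lower in sum in replicate 2, but not uniformly. Of 8 tested, 6 were called higher in replicate 1 and 1 in replicate 2, beside 41.7% and 44.1% of all genes tested. Anxa4, the highest, was at 824 and 707 CPM, Krt7 rose from 204 to 246 CPM, and Sox9 was level at 88.2 and 87.9 CPM. The part of either marker list in the differences of the cilium genes was not tested.

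**Figure D5:**
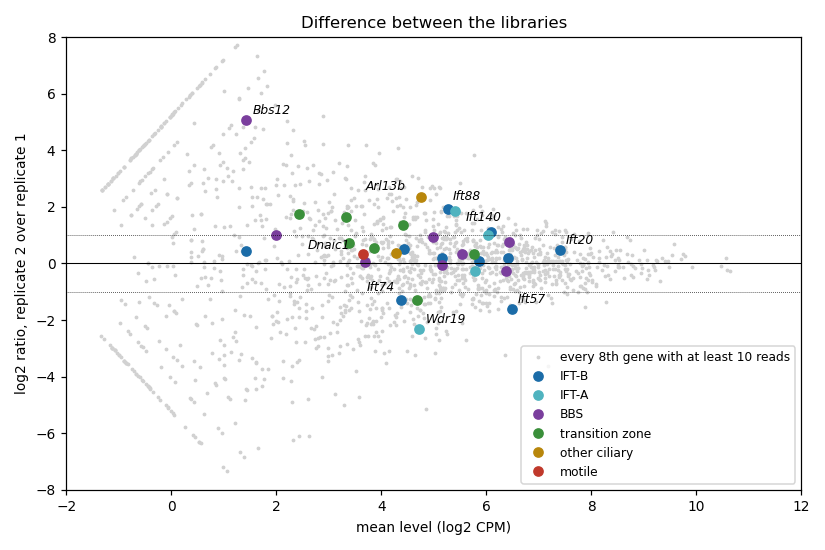
Log2 ratio of replicate 2 over replicate 1 against the mean level in log2 CPM, for the 32 cilium genes with at least 10 reads, coloured by role, over every 8th of all such genes in grey; the dotted lines mark 2-fold. The cilium genes lie within the grey cloud, with 21 called higher in replicate 2 and 6 higher in replicate 1, and Arl13b and Wdr19 stand at opposite ends among those above 10 CPM.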

How the data were processed

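RNA-seq libraries of 2 samples were analysed. The files that the authors deposited, 1 per sample, hold whole-number read counts for each gene symbol, not normalized. Per the submitters' processing notes, the reads passed through tools named without roles: TopHat2 2.0.4, DESeq, cutadapt, Cufflinks 2.0.2 and FastQC. The build named there is mm9. Not given in the sources used here are the counting program, annotation, strand setting and handling of multiply mapped reads, so overlapping genes and near-copies are uncertain. The cilium genes and the lists were chosen with earlier results of these data known.

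Counts were scaled with TMM in edgeR 4.0.16 (R 4.3.3). Log2 values used a prior count of 2. Reads of genes with at least 10 over both libraries were compared by an exact binomial test, called at an adjusted p of 0.05. Its code was run on simulated counts with counting error only. That run cannot show how the test behaves with further variation between libraries. Exon lengths and overlaps came from GENCODE M21 basic transcripts on GRCm38, matched to 22825 symbols (98.0%). The 25-base words came from all GENCODE M21 transcripts, and promoters from RefSeq on GRCm38.p6. Neither build is that of the counts. Named were all genes of the set with a mean of at least 1 CPM, those without reads, the 3 with the largest and the 3 with the smallest difference, up to 3 of the highest genes per list, RFX factors of at least 1 CPM and markers at 0; further list genes and heavy chains were named after their values were seen. A few members are not reported by name here but remain in the counts and medians. Alternatives were other scalings (including DESeq2 1.42.0), detection limits, prior counts, filters, motif definitions, and leaving out a replicate.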

Additional observations from a re-analysis of the deposited data

How the results depend on the processing

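No paired analysis was possible because there was only 1 group. Scaling by plain totals or DESeq2 size factors, a limit of 0.5 CPM, a prior count of 0.5, lengths per kb and means in place of medians kept the detection counts and the order of transport over motile genes. At 5 CPM 27 of the 35 genes and 17 of 20 transport genes were detected. With either library alone, detection was 31 to 32 of the 35 genes, 19 to 20 transport genes and 1 motile gene, and the transport minus motile difference in log2 CPM was 3.90 to 4.96. That difference, 4.43 as reported, depended on which genes stood for each set. It was 1.68 with genes of at least 10 reads, which leaves Dnaic1 alone, and 7.25 with Wdr19, Wdr35, Dnali1 and Foxj1 added. With the Dnahc rows, an addition made after seeing the data, it was 5.46, or 7.47 per kb of exon, and 5 motile genes were detected. The larger sizes rest on motile genes with few or no reads, whose log2 values depend on the prior count. Of the 27 genes that differed between libraries, 13 did so by over 2-fold. DESeq2 scaling and no filter on reads each gave 26. The strict X-box was in 3 promoters, in 1 when only GTTGCC was taken as the arm, and in 9 with the looser arms, which were added after seeing the data. Depth limits Dnaic2, Foxj1 and Dnali1: by counting error alone, 3 reads, or 0.241 and 0.248 CPM, could be missed. The spread between the libraries can exceed that bound. In replicates 1 and 2, Bbs12 had 0 and 65 reads, Dnahc17 0 and 127, and Evc2 639 and 4.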

Other observations

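Genes of the basal body and of the ciliary membrane, which lie at either side of the transition zone, were mostly detected. The shares were 100% and 78.6%, beside 95% of the transport genes and 45.7% of all symbols. Of 13 measured genes of the basal body and of ciliogenesis all 13 were detected. Odf2, a component of centriole appendages, was at 171 and 170 CPM in replicates 1 and 2, Pcm1, of the centriolar satellites, at 154 and 138 CPM, and Ccp110, a centriolar cap protein listed as 6330503K22Rik, at 95.3 and 117 CPM. Of the 13, 9 differed between the libraries by the exact binomial test with adjustment, beside 85.8% of all genes tested, with 5 higher in replicate 2 and 4 in replicate 1.

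Of 14 genes of ciliary membrane targeting and signalling, 11 were detected. Pkd1 and Pkd2, which encode the polycystins, were at 183 and 175 CPM and at 139 and 108 CPM, above most transport genes by CPM. Per kb of exon Pkd1 was at 12.5 and 11.9 CPM per kb and Pkd2 at 26.6 and 20.6. The transport medians were 11.1 and 15.2 CPM per kb. Inpp5e, the phosphoinositide phosphatase of the ciliary membrane, was at 65.0 and 97.7 CPM. Evc, a component of the Evc zone at the base of the cilium, had no read in either library.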
